A study of Mus musculus with 12 samples.

Results

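The 10 genes described here encode the cytokine IL-2, chains of its receptor and of the related IL-7 receptor, the transcription factors that carry the receptors' signal, and proteins that switch the signal off. They are Il2, Il2ra, Il2rb, Il2rg, Il7r, Stat5a, Stat5b, Cish, Socs1 and Socs3, chosen by name out of 25700 genes in the deposited RNA table, and all 10 were found and tested. Open chromatin was read at 56 regions that lie over these genes or within 1 kb of them, out of 114463 regions in all. The study profiled mouse Th2 cells, helper T cells of allergic inflammation, from a model of allergic asthma. RNA-seq, which counts transcripts, was made from 3 WT and 3 cKO libraries, and ATAC-seq, which reads where a transposase can cut open DNA, from 3 WT and 3 cKO libraries. cKO stands for a conditional knockout. The title of the series mentions NRF2 (gene Nfe2l2), a transcription factor of antioxidant defence, but which gene or exon was deleted, by which Cre, in which strain, at what age and under which treatment is not given in the sources used here, so these libraries are called cKO-labelled. Nor is it given whether libraries of a group came from separate animals, so the tests measure the spread between these libraries, which may be partly technical.

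IL-2 is made by activated T cells and acts on the same cells and on their neighbours. Its receptor is built from an alpha chain (Il2ra, CD25), which raises affinity, a beta chain (Il2rb), shared with the receptor for IL-15, and the common gamma chain (Il2rg), shared with the receptors for IL-4, IL-7, IL-9, IL-15 and IL-21. Binding activates the kinases JAK1 and JAK3, which phosphorylate STAT5A and STAT5B. These enter the nucleus and bind paired TTC and GAA letters in DNA. Among the genes they switch on are Il2ra itself and Cish, Socs1 and Socs3, whose SH2-domain products bind the activated receptor or its kinases and end the signal. In Th2 cells STAT5 signalling is known to help open the Il4 locus, and in many T cells it lowers Il7r.

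Of the 3 feedback genes, Cish and Socs3 carry the letters of a STAT site at or near their starts and Socs1 does not, and the receptor gene Il7r carries them too. They are shown because STAT5 proteins bind such letters. Promoter sequences came from RefSeq on GRCm38.p6, which gave 11 windows for 9 of the 10 genes (250 bases before a transcript start and 50 after it). The motif TTCNNNGAA, which reads the same on both strands, was searched in each window. It was found in 3 of the 11 windows, and 8.30% of all 32851 promoter windows of that length hold it. Capitals mark the matches, and each sequence runs 5′ to 3′ on the gene's own strand.
Cish, chr9:107296655-107296682, plus strand: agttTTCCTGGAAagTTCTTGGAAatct
Socs3, chr11:117969502-117969530, minus strand: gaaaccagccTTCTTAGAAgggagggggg
Il7r, chr15:9530000-9530028, minus strand: gttcaggagcTTCAGGGAAtaccaagatg
Cish has a pair of matches, from 1 to 9 and from 12 to 20 counted from its start, with 2 bases between them. Windows with 2 or more matches made up 0.457% of all windows. The match of Socs3 lies from -154 to -146 and that of Il7r from -142 to -134. The motif TGACNNNGC, the core of the antioxidant response element that NRF2 binds, was in 0 of the 11 windows on either strand, against 12.4% of all windows. Such matches describe letters in these windows and show no binding.

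The 250 bases before the start of Cish hold no further match, so they stand in lower case. Those of Il2, the ligand gene, hold none either and are shown for the chromatin results on that gene.
Cish, chr9:107296409-107296658, plus strand: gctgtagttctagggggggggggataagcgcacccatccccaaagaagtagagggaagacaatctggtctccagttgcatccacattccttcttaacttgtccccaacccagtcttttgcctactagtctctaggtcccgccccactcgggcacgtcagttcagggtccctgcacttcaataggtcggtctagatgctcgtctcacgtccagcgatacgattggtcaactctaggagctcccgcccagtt
Il2, chr3:37125955-37126204, minus strand: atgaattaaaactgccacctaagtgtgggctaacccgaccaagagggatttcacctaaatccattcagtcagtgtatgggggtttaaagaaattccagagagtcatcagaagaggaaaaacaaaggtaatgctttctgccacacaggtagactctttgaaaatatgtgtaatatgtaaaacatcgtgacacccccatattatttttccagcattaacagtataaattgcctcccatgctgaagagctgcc

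Some facts of the libraries bear on every value below. RNA libraries summed to 6431081 to 7372007 normalized counts (their raw depth is unknown), and ATAC libraries held 13149952 to 18327127 tags, of which 25.22% (WT2) to 38.28% (WT1) lay in peaks. Nfe2l2 was at 169.9, 155.3 and 147.4 normalized counts in WT1, WT2 and WT3 and at 452.8, 326.4 and 391.5 in cKO1, cKO2 and cKO3, higher and not lower in the cKO-labelled libraries (log2 difference 1.29, SE 0.220, limma adjusted p = 0.0438). A gene whose transcript lost an exon can still be counted, so this neither checks nor refutes the label. The Y-linked gene Ddx3y was at 123.4 to 140.5 in WT and at 0 in all 3 cKO-labelled libraries. Xist was found in all 6, at 3174 to 4047 in WT and at 4331 to 7069 in the cKO-labelled libraries. The sex of the source animals and the genotype cannot be told apart, which bears most on the X-linked Il2rg. Of the Th2 markers Gata3 averaged 711.7 ± 37.5 (SD, n = 3) in WT and 719.7 ± 114.0 in cKO-labelled libraries. Il13 averaged 810.1 ± 245.8 and 384.7 ± 58.3, without overlap (log2 difference -1.04, limma adjusted p = 0.0834). The authors' deposited table gives Il13 an adjusted p of 0.00104. Ccr8, another Th2 marker, stood the opposite way, at 159.2 to 203.8 in WT and 231.9 to 356.4 in cKO-labelled libraries (log2 difference 0.65, limma adjusted p = 0.295). Il1rl1 was low, at 19.53 to 37.21 in WT and 15.61 to 21.95 in cKO-labelled libraries, with overlap. Il4 and Il5, which define the lineage, and the marker Ptgdr2 averaged under 10 normalized counts and were not tested. Long genes stood higher in the cKO-labelled libraries than short ones, the median log2 difference being -0.03 for genes spanning up to 5.04 kb and 0.15 for genes spanning 64.7 kb or more.

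Among the RNAs of the 10 genes, 8 had a limma log2 difference above 0 (cKO-labelled minus WT), and Il2 and Il7r were below 0. The plain mean of Il7r went the other way, slightly higher for cKO (92.34, WT 89.59). None passed the test (0 of 10 in limma at an adjusted p of 0.05). Of all 18074 genes 0.205% passed it, 0.0332% as higher and 0.172% as lower. At an unadjusted p under 0.05 there were 3, Stat5a, Stat5b and Cish, against 12.1% of all genes. The median log2 difference of the 10 was 0.37 beside 0.06 for all genes, of which 55.0% were above 0. In the authors' deposited table Cish alone of the 8 members with an adjusted p passed 0.05 (5.68% of all genes passed there, and 1.78% did so as higher in cKO). The libraries of the groups did not overlap for Cish, higher in cKO, nor for Il2, lower in cKO. Over all genes, 7.40% stood apart as higher and 9.76% as lower.

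**Figure D1:**
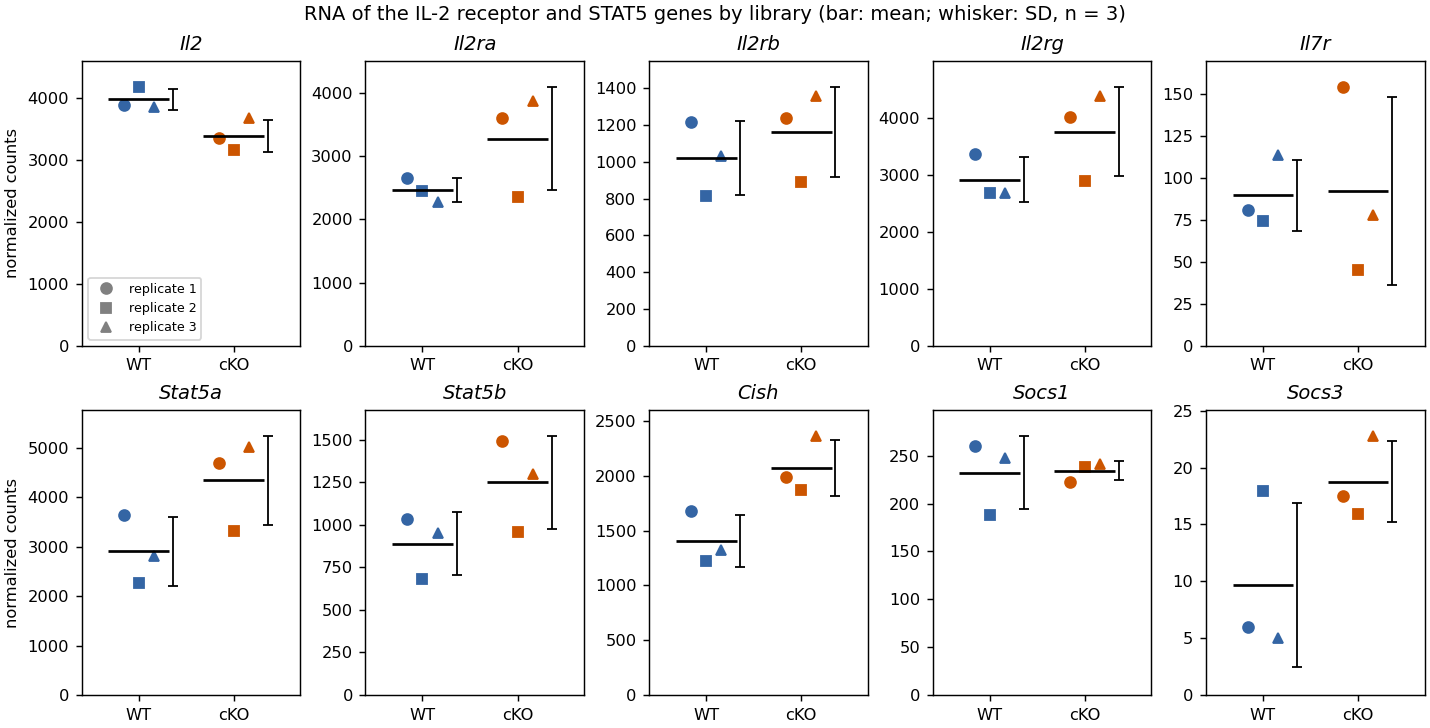
Normalized counts of each gene (vertical axis, linear, from 0) in 3 WT libraries (blue) and 3 cKO-labelled libraries (orange), with marker shapes for the replicate numbers, a bar at the mean and a whisker of 1 SD. The groups stand apart for Il2 (3864 to 4179 in WT, 3162 to 3671 in cKO) and for Cish (1221 to 1677 and 1875 to 2365), and overlap for the others.

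The ligand gene Il2 (chr3:37120713-37125954) was at 3896, 4179 and 3864 normalized counts in WT1, WT2 and WT3. It was at 3351, 3162 and 3671 in cKO1, cKO2 and cKO3. Every cKO-labelled library thus lay below every WT library, by a small margin between cKO3 and WT3. Their log2 difference was -0.23 (SE 0.129, 95% interval -0.51 to 0.05, limma adjusted p = 0.502), which did not pass. Over 18 alternative analyses it ran from -0.29 to -0.11.

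Il2ra (chr2:11642792-11693194), the high-affinity chain and a STAT5 target, was at 2652, 2440.3 and 2275 in WT and at 3600.0, 2343 and 3873 in cKO-labelled libraries. Libraries cKO1 and cKO3 stood above all WT libraries, and cKO2 fell among them. This gave a log2 difference of 0.38 (SE 0.182, 95% interval -0.01 to 0.78, limma adjusted p = 0.426). The common gamma chain gene Il2rg (chrX:101264385-101268255) was at 3366, 2688 and 2682 in WT and at 4007, 2882 and 4383 in cKO-labelled libraries. Again cKO1 and cKO3 were the highest and cKO2 lay inside the WT range, with a log2 difference of 0.35 (SE 0.172, limma adjusted p = 0.438). Il2rb (chr15:78479256-78511621), the signalling beta chain, was at 1213, 815.3 and 1031 in WT and at 1237, 889.4 and 1359 in cKO-labelled libraries. These ranges overlapped almost wholly (log2 difference 0.18, SE 0.202, limma adjusted p = 0.758).

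Il7r (chr15:9506159-9529941), the IL-7 receptor alpha chain that activated T cells shut down and memory cells regain, was low. Its values were 80.65, 74.19 and 113.9 in WT and 154.1, 45.28 and 77.63 in cKO-labelled libraries. The cKO-labelled libraries held both the highest and the lowest value of the 6. The log2 difference of -0.11 had an SE of 0.417 and a 95% interval from -1.01 to 0.79 (limma adjusted p = 0.944), which is wide in both directions. Its sign turned without cKO2 (0.31), without WT3 (0.08) and with sample quality weights (0.50). The authors' deposited log2 change, given without an adjusted p, was also above 0 (0.006).

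The transducer genes lie head to head on chromosome 11, Stat5b at 100780731 to 100859004 and Stat5a at 100859351 to 100885169, and Stat3 follows Stat5a. Stat5a was at 3648, 2269 and 2805 in WT and at 4689.7, 3324 and 5016 in cKO-labelled libraries. Only cKO2 lay inside the WT range, below WT1. For Stat5a the log2 difference was 0.58 (SE 0.194, 95% interval 0.16 to 1.00, unadjusted p = 0.0103, limma adjusted p = 0.242). Stat5b was at 1035, 681.5 and 955.7 in WT and at 1497, 957.1 and 1298 in cKO-labelled libraries. The pattern was that of Stat5a, with cKO2 between WT3 and WT1 (log2 difference 0.49, SE 0.209, unadjusted p = 0.0364, limma adjusted p = 0.372). Where the proteins are nearly alike, reads from shared coding sequence can be split between the genes by the counting, so the separate values carry that uncertainty.

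Cish (chr9:107296659-107302784), whose product binds the phosphorylated receptor and is a common readout of STAT5 activity, was at 1677, 1221 and 1324 in WT. It was at 1991, 1875 and 2365 in cKO-labelled libraries. All 3 cKO-labelled values lay above the highest WT value. For Cish the log2 difference was 0.57 (SE 0.165, 95% interval 0.21 to 0.92, unadjusted p = 0.00455, limma adjusted p = 0.177). The authors' deposited table gives Cish a log2 change of 0.45 with an adjusted p of 0.0442. Their changes come from another fit and cannot be set against those of limma by size. For Socs3 theirs was 0.05 beside 1.08. Over the 18 alternatives the adjusted p of Cish ran from 0.0148 to 0.589.

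Socs1 (chr16:10783808-10785536), which inhibits JAK kinases directly, was at 260.1, 188.4 and 248.0 in WT and at 222.8, 238.7 and 241.8 in cKO-labelled libraries. All cKO-labelled values lay inside the WT range. The log2 difference was 0.03 (SE 0.224, 95% interval -0.46 to 0.51, limma adjusted p = 0.975), and its sign turned under 4 of 18 alternatives. Socs3 (chr11:117966079-117970336), the inhibitor best known for the receptors that use gp130, was near the limit of the filter. It was at 5.97, 17.94 and 5.04 in WT and at 17.52, 15.95 and 22.77 in cKO-labelled libraries. WT2 alone of the WT libraries reached the cKO-labelled range. The log2 difference of 1.08 therefore had an SE of 0.707 (95% interval -0.45 to 2.61, limma adjusted p = 0.579).

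**Figure D2:**
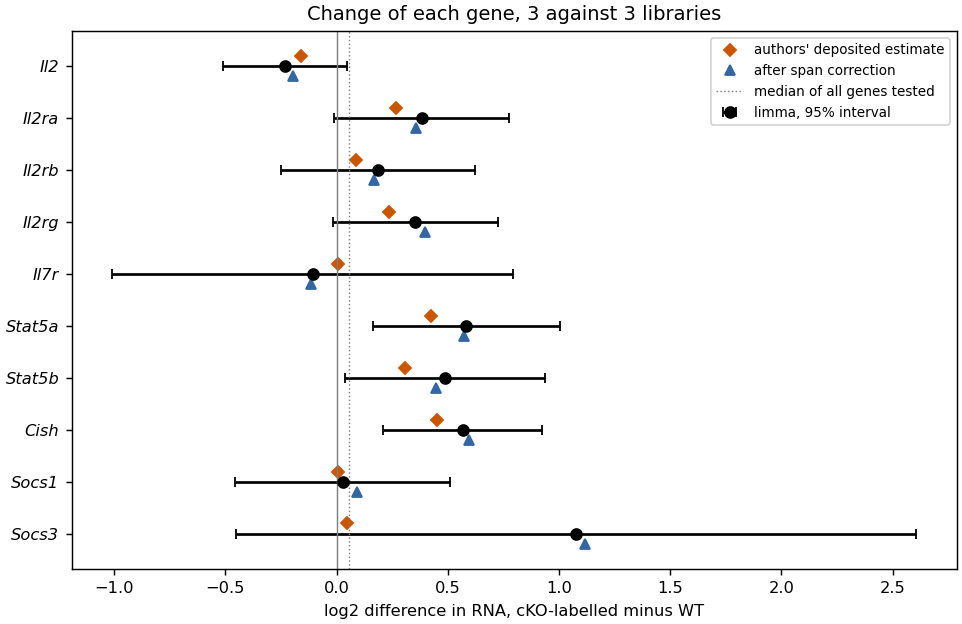
Log2 difference in RNA, cKO-labelled minus WT, for each gene: black points with the 95% interval from limma, orange diamonds for the authors' deposited estimate and blue triangles after the span correction, with the median of all genes dotted. The intervals of Stat5a, Stat5b and Cish lie above 0 before adjustment, and the span correction moves Stat5b from 0.49 to 0.45 and Cish from 0.57 to 0.60. The authors' estimates come from another fit and differ in size from those of limma, as for Socs3 (0.05 beside 1.08).

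The order of the libraries differed by gene but often had the same ends. For Il2ra, Il2rb, Il2rg and Stat5a the lowest pair and the middle varied, while WT1, cKO1 and cKO3 were the top 3 in that ascending order. For Cish the order was WT2, WT3, WT1, cKO2, cKO1 and cKO3 from low to high. That is also the order of the correlation, across genes within a library, between a gene's deviation from its 6-library mean and its span (Spearman rho -0.113, -0.096, -0.032, -0.006, 0.100 and 0.107). Genes are not independent replicates, and the part of this trend in the members' values was not tested beyond 1 measurement. With the linear trend on span removed in each library, a correction chosen after seeing the data, the log2 differences were 0.57 for Stat5a, 0.45 for Stat5b, 0.60 for Cish, 0.35 for Il2ra and 0.40 for Il2rg. None of the 10 genes passed with it. The share of counts from mitochondrial genes was 2.15% to 3.35% in WT and 2.91% to 4.47% in cKO-labelled libraries.

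With sample quality weights, which let limma trust some libraries more, 5 of the 10 passed, Stat5a, Stat5b, Il2rg, Il2ra and Cish, all higher in cKO, and so did 1783 genes in all. Library cKO1 took a weight of 7.43 there, against 0.44 to 1.12 for the other 5, so that fit rests largely on 1 library. The genes most like Il2ra over the 6 RNA libraries, out of 11943 genes whose mean was 50 or more, were Pcbp1 (Pearson r = 0.997), Cd247 (0.997) and Srsf4 (0.994). They bind RNA, form the zeta chain of the T cell receptor and regulate splicing, in that order. The libraries share depth and composition, and r over 6 points is given as a description only.

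Genes around this pathway were read from lists of textbook members, and 0 of them passed in limma in either direction. The counts below stand beside 55.0% of all genes with a difference above 0, 12.1% at an unadjusted p under 0.05 and a median of 0.06. No list was tested against all genes or against another list. Of the other cytokines and receptor chains of the common gamma family, 9 of 11 were tested, 4 with a difference above 0 and 5 below, 2 at an unadjusted p under 0.05, with a median of -0.15. Il9, a Th2 and Th9 cytokine, was at 14.62, 130.3 and 89.52 in WT and at 6.87, 4.41 and 13.71 in cKO-labelled libraries (log2 difference -2.74, SE 0.770, limma adjusted p = 0.163). Every cKO-labelled library lay below every WT library, by less than 1 normalized count between cKO3 and WT1. The IL-21 receptor gene Il21r averaged 1813 ± 299 (SD, n = 3) in WT and 2342 ± 354 in cKO-labelled libraries, with overlap.

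Of 9 Janus kinases and other STATs, 8 had a difference above 0 and 1 below, 4 at an unadjusted p under 0.05, with a median log2 difference of 0.42. The 1 below was Stat4, the transducer of IL-12 in Th1 cells. It was at 706.5, 924.5 and 788.8 in WT and at 358.3, 438.8 and 435.5 in cKO-labelled libraries, with no overlap (log2 difference -0.97, SE 0.185, limma adjusted p = 0.0613). The authors' deposited table gives it an adjusted p of 0.000213. The kinase gene Tyk2 averaged 357.3 ± 141.0 in WT and 568.3 ± 122.0 in cKO-labelled libraries (SD, n = 3 each). Stat4 thus stood opposite to Stat5a and Stat5b in sign.

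Of 16 other negative regulators of cytokine signals, 14 had a difference above 0 and 2 below, 4 at an unadjusted p under 0.05, with a median of 0.26. The adaptor gene Sh2b3 averaged 367.7 ± 57.0 in WT and 564.7 ± 143.9 in cKO-labelled libraries, with overlap. Socs5 was at 104.6 to 160.1 in WT and at 162.9 to 263.2 in cKO-labelled libraries, which just missed overlapping. Of 12 tested adaptors and kinases downstream of the receptor (13 listed), 11 were above 0 and 1 below, 3 at an unadjusted p under 0.05, with a median of 0.33. Pik3ca, a catalytic subunit of phosphoinositide 3-kinase, was at 526.0 to 580.2 in WT and at 765.0 to 944.7 in cKO-labelled libraries (log2 difference 0.61, SE 0.168, limma adjusted p = 0.157). Its adjusted p in the authors' deposited table was 0.0215. Pik3r1, which encodes a regulatory subunit, averaged 356.2 ± 75.0 and 534.1 ± 69.1, again without overlap.

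Genes that IL-2 and STAT5 are known to induce did not stand as a block, with 14 of 21 above 0 and 7 below, 2 at an unadjusted p under 0.05 and a median of 0.15. Pim1, a survival kinase, was at 1157 to 1210.3 in WT and at 1369 to 1653 in cKO-labelled libraries (log2 difference 0.37, limma adjusted p = 0.337). Prdm1, which encodes BLIMP1, was low, at 0 to 8.36 in WT and at 18.58 to 37.93 in cKO-labelled libraries. Of 8 genes that IL-2 is known to restrain, all 8 were above 0, 4 at an unadjusted p under 0.05, with a median of 0.48. The homing receptor gene Ccr7 was at 2516 to 2960.3 in WT and at 3394 to 3870.0 in cKO-labelled libraries (log2 difference 0.44, SE 0.134, limma adjusted p = 0.194). Il6ra, which encodes an IL-6 receptor chain, averaged 274.1 ± 51.7 and 392.3 ± 50.0, with no overlap.

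Other cells carry several of these genes, above all regulatory T cells, which are rich in Il2ra. The summed level of 7 regulatory T cell markers, all tested, was 1127 to 1369 in WT and 1137 to 1369 in cKO-labelled libraries, almost the same range. That sum was mostly Nrp1, Ctla4, Ikzf2 and Ikzf4. Foxp3 was low, at 0 to 19.3 in WT and 7.96 to 17.7 in cKO-labelled libraries. By limma sign 4 of the 7 were above 0 and 3 below. Ikzf2 was lower and Lrrc32 higher in every cKO-labelled library, so the like sums do not measure the share of these cells. Of 10 T cell markers, all tested, the sums were 21516 to 23190.4 and 19340.3 to 24947. By limma sign 5 were above 0 and 5 below, 3 at an unadjusted p under 0.05. Cd3d, Trbc1 and Trbc2 were lower and Cd3e higher in every cKO-labelled library, so overlapping sums do not mean like levels. Markers of CD8 T and NK cells summed to 215.7 to 275.9 and 218.2 to 232.9, with 3 of 7 tested and Klrb1c not analysed here. B cell markers, 6 of 6 tested, summed to 185.9 to 460.2 and 246.0 to 361.9. Epithelial and stromal markers, 4 of 7 tested and Krt18 not analysed here, summed to 271.2 to 358.7 and 203.1 to 323.8. Myeloid markers, 3 of 7 tested with Lyz2 and Fcgr1 not analysed here, summed to 78.99 to 115.2 and 53.13 to 88.42. Of 7 granulocyte and mast cell markers only 2 had values, Siglecf and Cpa3, and 1 was tested. Fcer1a, Mcpt8, Ms4a2, S100a8 and S100a9 were not analysed here. The sum was 19.54 to 27.85 in WT and 31.11 to 40.69 in cKO-labelled libraries. It was mostly Siglecf, at 19.54 to 23.58 and 26.66 to 39.27 (limma adjusted p = 0.681), so it does not stand for the whole list. The part of these other cells in the members' values was not tested. In bulk RNA, fewer cells of a type and less RNA per cell cannot be told apart.

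The open chromatin over these genes was compared at 26 of the 56 regions, those with a peak in all 6 libraries (46.4%, against 29.3% of all regions). A further 17 were called in 1 library and 13 in 2 to 5. Tags, the sequenced ends, were summed over each region on the authors' scale of 10000000 per library, quantile normalized over 33531 regions and tested with limma. By this test 7 of the 26 were lower in the cKO-labelled libraries and 0 were higher, where 7.33% of all regions were lower, 6.81% higher and 14.1% either. After subtraction of each library's median the balance was the opposite, with 9 of the 26 higher and 1 lower (9843 and 2207 of all regions), and on the deposited scale 0 were higher and 1 was lower. The median log2 difference was -0.16 over the 26 and 0.02 over all regions. Only 4 of the 7 kept their direction under all 4 scalings tried, those of Il2, Il7r, Stat5b and the 3′ end of Stat5a. The other 3, over Il2ra, Il2rb and Cish, turned to higher when the library median was subtracted or when the deposited scale was kept. Of all regions called lower, 73.3% kept their direction under the 4 scalings.

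**Figure D3:**
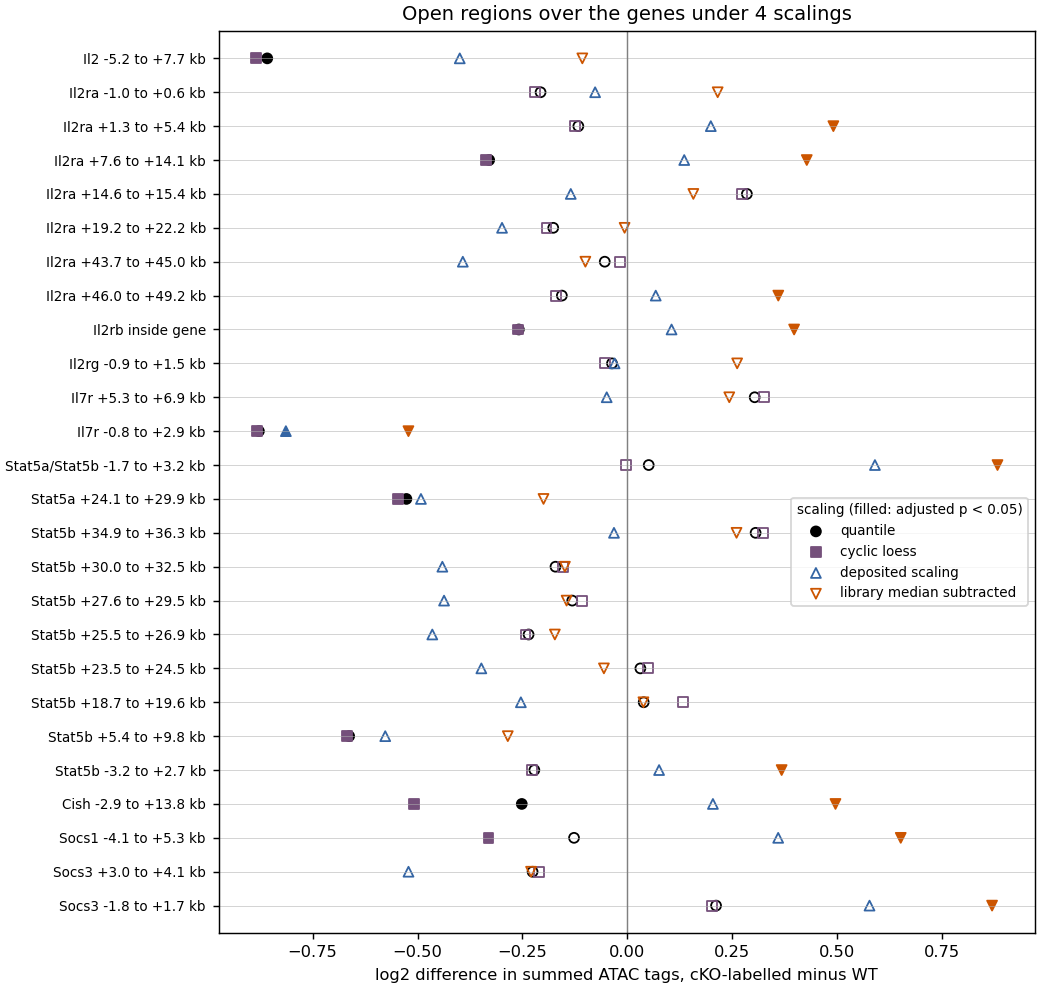
Log2 difference in summed ATAC tags, cKO-labelled minus WT, at the 26 regions present in all libraries (rows, with distance from the transcript start in kb), under 4 scalings (marker shapes, filled where the adjusted p is under 0.05). Il7r is filled under all 4, from -0.88 to -0.52, while Cish goes from -0.51 to 0.50.

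At Il2 the region chr3:37118242-37131153 spans the gene and runs from -5.20 to 7.71 kb of its start, negative values being upstream. It held 431.8, 350.3 and 433.3 tags in WT1, WT2 and WT3, and 333.6, 300.4 and 284.4 in cKO1, cKO2 and cKO3. All cKO-labelled libraries were below all WT libraries, as at 22.0% of all regions. The RNA of Il2 also stood apart as lower, as did 9.76% of all genes, and it did not pass the test. Quantile normalization gave a log2 difference of -0.86 (SE 0.089, limma adjusted p = 5.7e-05). It was -0.40 on the deposited scale (adjusted p = 0.231), -0.11 after median subtraction (adjusted p = 0.393) and -0.89 under loess. Over all 17 alternatives the adjusted p ran from 9.6e-07 to 0.934.

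The shape of the Il2 region differed too. Each WT library had 1 unbroken peak, 12.9, 12.3 and 12.4 kb long, whereas the cKO-labelled libraries had 3, 4 and 2 peaks covering 10.5, 10.4 and 11.3 kb. The peak over the gene's start ended at -0.85, -0.70 and -0.83 kb in cKO1, cKO2 and cKO3, so the 250 promoter bases printed above stayed inside a peak in all 6 libraries. Beyond a gap, separate upstream peaks followed, with their nearer edges at -1.97, -1.32 and -2.15 kb. Per kb of called peak the region differed by only -0.03 on the log2 scale (limma adjusted p = 0.934). The lower sum went with less called length, and the part of length in it was not tested. A gap in a peak list marks tags under the caller's threshold, not their absence.

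At Il7r the region chr15:9526934-9530666 covers the start and the first part of the gene, from -0.79 to 2.94 kb. It held 112.5, 101.0 and 119.8 tags in WT and 68.6, 65.4 and 54.7 in cKO-labelled libraries. The groups were well apart, with the lowest WT value above the highest cKO value by more than the range within either group. After quantile normalization the log2 difference was -0.88 (SE 0.135, limma adjusted p = 0.00105). It was -0.81 on the deposited scale (adjusted p = 0.0102), -0.52 after median subtraction (adjusted p = 0.00291) and -0.88 under loess (adjusted p = 0.000266). Of the 26 regions this was the 1 that passed as lower under all 4 scalings, where 3.39% of all regions did. It missed the threshold per kb of peak (-0.31, adjusted p = 0.332), the 1 of 17 alternatives in which it did.

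The called peaks of this region ended at 2.81 to 2.94 kb in WT and at 1.97 to 2.26 kb in cKO-labelled libraries. WT1 and cKO2 had 1 peak over both sides. In WT2, WT3, cKO1 and cKO3 the peak at the start held 31.4, 29.3, 24.8 and 26.2 tags. The downstream peak held 69.6, 90.5, 43.8 and 28.5, so both sides were lower in these cKO-labelled libraries. The place of the loss was not tested. A stretch of 549 bp, chr15:9527068-9527616, from 2.26 to 2.81 kb after the start, was covered by a peak in all 3 WT libraries and in no cKO-labelled library. It was the 1 such stretch of at least 500 bp over the 10 genes, and there was 0 in the other direction. That length was set after the data were seen. How often such stretches occur over all genes was not counted, so these counts describe the 10 genes only. Further into the gene, the region chr15:9520297-9520898 was called in WT1, WT2 and WT3 with 7.55, 11.5 and 8.26 tags and in no cKO-labelled library. Those heights are close to the lowest peaks that were called at all, 5.08 to 6.01 tags. Of the 56 regions it was the 1 present in all WT and no cKO lists (2.48% of all regions were), and 0 of 56 showed the reverse (0.280% of all). The STAT match of Il7r printed above lies at its start, where every library had a peak. A region between, from 5.32 to 6.86 kb, held 20.5 to 33.6 tags in WT and 20.9 to 30.0 in cKO-labelled libraries. The RNA of Il7r, low in all 6 libraries, showed no difference of that sign beyond its wide interval.

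**Figure D4:**
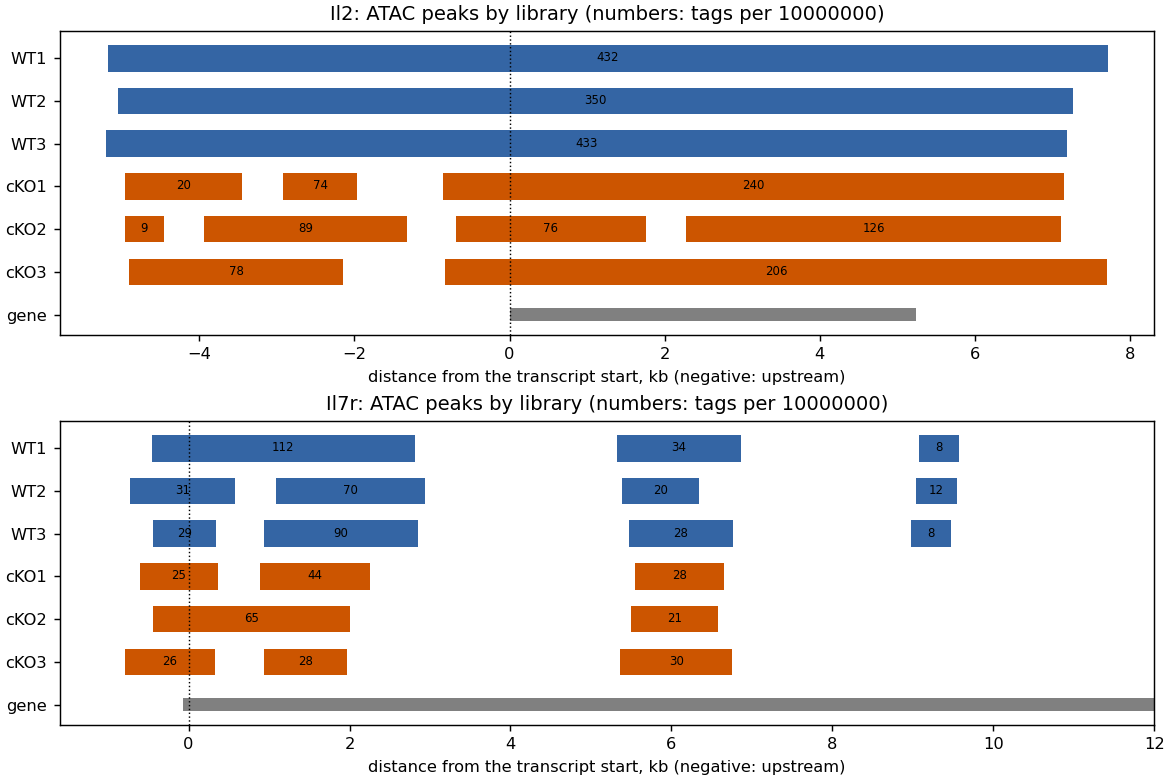
Called ATAC peaks over Il2 (top) and Il7r (bottom) in each library, drawn as bars against distance from the transcript start in kb, with each peak's tags per 10000000 printed on it and the gene's span in grey. WT libraries (blue) show 1 unbroken peak over Il2 where cKO-labelled libraries (orange) show 2 to 4, and at Il7r the WT peaks reach 2.81 kb or more after the start.

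Inside Stat5b the region chr11:100840753-100845154, from 5.43 to 9.83 kb after the RefSeq promoter's start, held 122.7, 87.6 and 118.6 tags in WT and 79.0, 61.8 and 77.6 in cKO-labelled libraries. All cKO-labelled values were below all WT values, by the gap between WT2 and cKO1. The log2 difference was -0.66 (SE 0.121, limma adjusted p = 0.00301), against -0.58 on the deposited scale (adjusted p = 0.0703) and -0.28 after median subtraction (adjusted p = 0.0896). Over its 17 alternatives the adjusted p ran from 0.00138 to 0.711. The RNA of Stat5b leaned the other way, to higher.

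At the 3′ end of Stat5a the region chr11:100883748-100889552 reaches past the gene into the end of Stat3, so it cannot be assigned to either. It held 111.7, 68.8 and 111.9 tags in WT and 61.3, 92.2 and 54.0 in cKO-labelled libraries. WT2 lay among the cKO-labelled values and cKO2 between WT2 and the other WT libraries. The log2 difference of -0.53 (SE 0.150, limma adjusted p = 0.0293) kept its call in 7 of 17 alternatives. Per kb of peak it was 0.27 (adjusted p = 0.373 in limma). Leaving out any 1 of WT1, WT3, cKO1 or cKO3 ended the call, with adjusted p from 0.0691 to 0.144.

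**Figure D5:**
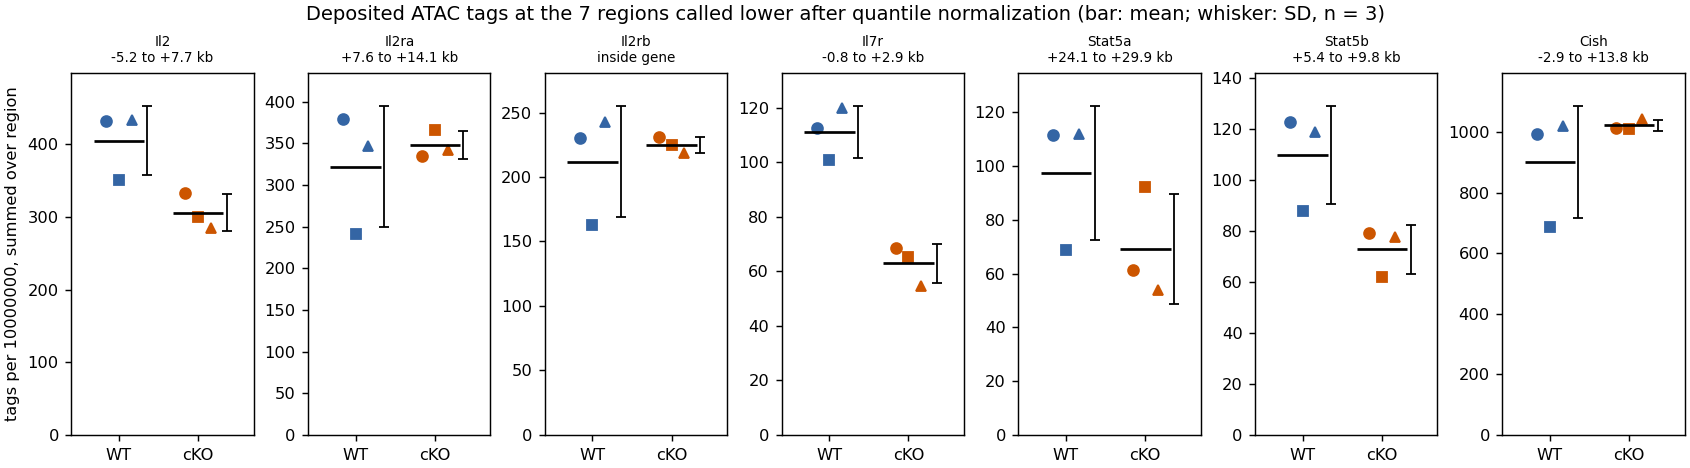
Deposited ATAC tags per 10000000 (vertical axis from 0) at the 7 regions called lower after quantile normalization, 3 WT (blue) and 3 cKO-labelled (orange) libraries each, with a bar at the mean and a whisker of 1 SD. The groups stand apart at Il2, Il7r and Stat5b, whereas at Il2ra, Il2rb and Cish WT2 lies far below WT1 and WT3 and the cKO-labelled libraries lie near those.

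The remaining 3 calls depend on the scaling. Inside Il2ra the region chr2:11650398-11656903, from 7.61 to 14.1 kb after the start, held 379.3, 240.6 and 346.2 tags in WT and 334.6, 366.4 and 342.2 in cKO-labelled libraries. Its log2 difference was -0.33 (limma adjusted p = 0.00304) after quantile normalization, 0.14 on the deposited scale and 0.43 after median subtraction, where it passed as higher (adjusted p = 0.000561). Inside Il2rb the region chr15:78493002-78496513 held 230.6, 162.9 and 242.5 tags in WT and 231.1, 224.5 and 219.0 in cKO-labelled libraries. It was at -0.26 (adjusted p = 0.0304), 0.11 and 0.40 on the same 3 scales in limma. Without WT3, cKO1, cKO2 or cKO3 its quantile-normalized call was lost (adjusted p from 0.0688 to 0.121 in limma). The region over Cish, chr9:107293804-107310445, held 993.4, 688.3 and 1022 tags in WT and 1013, 1011 and 1044 in cKO-labelled libraries. It was at -0.25 (adjusted p = 0.00101), 0.20 and 0.50 in limma. In all 3 regions WT2, the library with the smallest share of tags in peaks, was the lowest of the 6, and the cKO-labelled values lay close to or within the range of WT1 and WT3. For Cish, whose RNA had the smallest p of the 10 genes, the chromatin was thus open along 13.9 to 16.3 kb of called peak in every library, with no direction that held across scalings.

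Starts of the other genes gave no call. The region over the start of Stat5a, chr11:100857978-100862886, is also reached by the span of Stat5b. It held 519.4, 325.5 and 533.5 tags in WT and 646.0, 709.3 and 673.8 in cKO-labelled libraries, all above WT. Quantile normalization left a log2 difference of 0.05 (limma adjusted p = 0.538), and median subtraction 0.88 (adjusted p = 7.3e-07). The start of Socs3, chr11:117967684-117971153, held 209.1, 143.0 and 208.0 tags in WT and 249.7, 275.8 and 301.9 in cKO-labelled libraries, again all above WT. Its log2 difference was 0.21 (SE 0.077, limma adjusted p = 0.0741) and 0.87 after median subtraction, and without WT2 it passed as higher (0.24, limma adjusted p = 0.0386). The region over the start of Socs1, chr16:10780209-10789587, covers that whole gene and the neighbouring gene Tnp2, so its tags are not those of the start alone. It held 895.7, 546.7 and 893.2 tags in WT and 963.0, 971.6 and 989.0 in cKO-labelled libraries. Its log2 difference was -0.13 (limma adjusted p = 0.0585) with quantile normalization and 0.65 after median subtraction. Socs1 passed as lower in limma without WT2 (-0.15, adjusted p = 0.00575), and over its alternatives the adjusted p ran from 2.6e-05 to 0.845. On the deposited tags, the groups stood apart as higher in cKO at 3 of the 26 regions, these starts, and as lower at 5, where 13.8% and 22.0% of all regions did.

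The start of Il2ra, chr2:11641833-11643411, held 120.8, 79.1 and 122.8 tags in WT and 99.7, 101.8 and 98.5 in cKO-labelled libraries (log2 difference -0.21, limma adjusted p = 0.181). That of Il2rg, chrX:101266725-101269163, held 85.7, 56.5 and 86.4 and then 70.0, 82.9 and 67.7 (log2 difference -0.04, limma adjusted p = 0.874). The main start of Stat5b, chr11:100847876-100853788, held 180.4, 135.0 and 194.1 tags in WT and 190.7, 177.4 and 163.8 in cKO-labelled libraries. It was at -0.22 (adjusted p = 0.104) in limma, and an inner start, chr11:100821123-100822975, at -0.13 (adjusted p = 0.759). At the first 3 of these starts WT2 was the lowest of the 6 libraries. At the inner start 31.0 to 41.5 tags in WT stood above 24.0 to 28.6 in cKO-labelled libraries. Il2rb had no promoter entry, and the only region over it with a peak in all 6 libraries was the 1 described above.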

How the data were processed

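The authors deposited a table of normalized counts per gene (a signal, since they are not whole numbers: only 0.248% of the nonzero values come within 0.001 of one), with their own log2 fold change, p-value and adjusted p-value. The submitters' processing notes name the mm10 build and, with no settings, Bowtie2 2.3.5.1, HOMER 4.11, RSEM 1.3.3, STAR, edgeR and DESeq2. ATAC peaks were called per library with HOMER in its histone style at a Poisson p-value of 0.001 and at most 1 tag per bp, per the file headers. The deposited tag signal of a peak is normalized to a library size of 10000000. The deposited peak score (a score before that scaling) and the deposited clonal fold (a ratio) were not used.

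Genes with a mean of at least 10 were tested with limma 3.58.1 (R 4.3.3, trend) on log2(value + 1), which understates changes of low genes, with Benjamini-Hochberg adjustment. Peaks sharing at least 1 bp were merged, their tags summed, log2(tags + 1) quantile normalized and tested likewise. Peaks were placed on RefSeq GRCm38.p6 spans plus 1 kb. Tested on simulated data, the RNA fit on 18074 genes recovered 20 of 100 changes of log2 1 and 74 of 100 of log2 2, and the ATAC fit on 33531 regions recovered 30 and 96. Whether replicate numbers pair the libraries is not given, and the main fits did not pair them. Same-numbered deviations correlated at 0.12, 0.21 and -0.06 for RNA and -0.02, -0.01 and 0.01 for ATAC. Differently numbered ones ran from -0.27 to 0.22 for RNA and -0.01 to 0.02 for ATAC. With so few libraries these values cannot decide the question. Named were the 10 genes, the 2 list genes of smallest p where none passed, called regions, start regions, the 3 genes most like Il2ra, and checks of the labels. Members and lists were chosen with earlier results of these data known. Python 3.11.15 (pandas 2.3.3, numpy 2.4.6, scipy 1.17.1) and matplotlib 3.10.9 were used.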

Additional observations from a re-analysis of the deposited data

How the results depend on the processing

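With 3 libraries a group, and raw RNA depth unknown, most simulated RNA changes of 2-fold (log2 1) were missed, with 20 of 100 recovered. Low genes such as Socs3 were not among those changed in the simulation. A region's sum moves with the length called. Of 18074 genes 37 passed in RNA, against 73 after trimmed mean rescaling, 6 without the variance trend, 1783 with sample quality weights, 122 with the replicate block, 526 in the authors' deposited table and 1 (without WT2) to 151 (without cKO2) with 1 library left out. Of the 10 genes 0 passed, against 5 with sample quality weights and 1 in the authors' table. The other 16 settings gave 0, the replicate block among them. The difference of Socs1 reversed to -0.023 with quantile normalization, -0.0002 with trimmed mean rescaling, -0.050 with weights and -0.12 without WT2 (to 0.12 without WT1). That of Il7r reversed to 0.50 with weights, 0.08 without WT3 and 0.31 without cKO2 (lowest -0.56, without cKO1). In the authors' table it was 0.006. The causes were not tested.

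Of 33531 ATAC regions 4742 passed, against 12050 after median subtraction (9843 higher, 2207 lower), 2681 by the highest peak, 833 per kb, 1173 without the trend, 2988 with a peak in at least 3 lists and 1740 to 4385 with 1 library left out. The share that was higher was 48.1%, against 18.5% on the deposited scale and 81.7% after median subtraction. Over the 10 genes 7 passed (0 higher, 7 lower), against 10 after median subtraction (9 higher, 1 lower), 1 on the deposited scale, 0 per kb, 2 without the trend and 5 to 9 with 1 library left out; the replicate block gave 7. Reversed differences on the deposited scale were 0.14 for Il2ra, 0.11 for Il2rb, 0.20 for Cish, 0.076 for the main start of Stat5b and 0.36 for Socs1. After median subtraction they were 0.43, 0.40, 0.50, 0.37 and 0.65, with 0.22 for the start of Il2ra and 0.26 for Il2rg. Loess gave -0.002 for the start of Stat5a. Per kb of peak the values were 0.27 for the 3′ end of Stat5a, 0.14 for Il2rg and -0.085 for the start of Stat5a. They were 0.36 for the main start of Stat5b and -0.093 for Socs3. The inner start of Stat5b was at -0.36 to 0.16 (without WT2) with 1 library left out, and Il2rg at -0.097 to 0.014 (without WT3; 0.0008 without cKO3). Regions in all WT and no cKO lists numbered 1, against 0 with peaks of at least 10 tags and 1 to 2 with 1 library left out (2 without WT1). The reverse numbered 0, and 0 to 1 (1 without cKO2).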
